A study of Homo sapiens with 42 samples.

Results

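The mitochondrially encoded genes are the rows of the deposited table whose name starts with MT-. There were 37 of them among 60240 genes, namely 13 mRNAs, 2 rRNAs and 22 tRNAs. All lie on chromosome M of GRCh38, from MT-TF at chrM:577-647 to MT-TP at chrM:15956-16023. A test was made of each gene with a normalised count of at least 10 in at least 3 libraries, which 22168 genes met. Among the members these were all 13 mRNAs, both rRNAs and 16 tRNAs. The tRNAs MT-TF, MT-TW, MT-TY, MT-TG, MT-TS2 and MT-TL2 were not tested.

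RNA was measured in 5 established human acute myeloid leukaemia cell lines, MOLM-13, SKM-1, MOLM-14, OCI-AML3 and KG-1, each labelled as wild type and each treated with decitabine or with DMSO in 3 replicates (30 libraries in 10 groups). Decitabine is a deoxycytidine analogue that is built into DNA and traps DNA methyltransferases, and DMSO is its solvent. Cells were given 100 nM decitabine at day 0, day 1 and day 2 and harvested at 72 h, per the labels' protocols. The wells, seeded at 100000 cells per mL, were in duplicate or triplicate, so that a p-value here reflects only how far the libraries of a group differ, part of which may be technical. MOLM-13 and MOLM-14 are known as sister lines, so the 5 lines are not all independent of each other. The comparison asks which RNAs differ after decitabine. A normalised count per library does not tell fewer cells from less RNA per cell.

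Mitochondrial DNA is a small circle held in many copies per cell and read from both of its strands. The nuclear-encoded polymerase POLRMT, with TFAM and TFB2M, makes long transcripts that span several genes. The tRNAs lie between the rRNA and mRNA genes and are cut out at both ends, which releases the mRNAs and rRNAs. After this cut, mRNA levels also depend on stability, for which LRPPRC and SLIRP are known. The mRNAs encode membrane subunits of complexes I, III and IV and of ATP synthase, and the rRNAs and tRNAs serve the mitochondrial ribosome. MT-ND6 is the only mRNA of the opposite strand, where 8 of the 22 tRNAs also lie (MT-TQ, MT-TA, MT-TN, MT-TC, MT-TY, MT-TS1, MT-TE and MT-TP). Acute myeloid leukaemia cells are known to depend on mitochondrial respiration.

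Where 2 mRNAs share bases, a read of 50 bp cannot always be given to one of them. Such pairs are therefore shown first, since their values are not independent. MT-ATP8 (chrM:8366-8572) and MT-ATP6 (chrM:8527-9207) overlap by 46 bases, and MT-ND4L (chrM:10470-10766) and MT-ND4 (chrM:10760-12137) by 7 bases. The stretches below run 5′ to 3′ on the plus strand, at chrM:8512-8587 and chrM:10745-10781. Capitals mark the bases both genes share, lower case the flanks (GENCODE 29 transcripts, GRCh38).
MT-ATP8 and MT-ATP6: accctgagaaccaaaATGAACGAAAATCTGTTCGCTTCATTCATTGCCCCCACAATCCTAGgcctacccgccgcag
MT-ND4L and MT-ND4: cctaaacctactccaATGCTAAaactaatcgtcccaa

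The tRNA genes are the shortest members, and whether they had any signal depended on the line. The sequences below are those of the 5 tRNAs named most in the results, each 5′ to 3′ on its own strand (GENCODE 29 transcripts, GRCh38). They are MT-TV at chrM:1602-1670 (plus), MT-TL1 at chrM:3230-3304 (plus), MT-TE at chrM:14674-14742 (minus), MT-TA at chrM:5587-5655 (minus) and MT-TN at chrM:5657-5729 (minus). They carry valine, leucine, glutamate, alanine and asparagine. MT-TV and MT-TL1 border MT-RNR2 on its left and right with no base between them.
MT-TV: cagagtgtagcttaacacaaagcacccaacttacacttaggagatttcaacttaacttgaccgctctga
MT-TL1: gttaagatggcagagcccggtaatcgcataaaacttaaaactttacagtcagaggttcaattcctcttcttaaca
MT-TE: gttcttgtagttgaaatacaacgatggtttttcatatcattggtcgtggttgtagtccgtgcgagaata
MT-TA: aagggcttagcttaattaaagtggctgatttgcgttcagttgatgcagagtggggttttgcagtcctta
MT-TN: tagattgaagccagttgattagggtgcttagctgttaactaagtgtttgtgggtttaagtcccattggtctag

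The libraries fell into 2 sets that differ by line. Depth in units of 1e+06 reads, estimated from the step of low values, was 42.9 to 75.0 in MOLM-13 and SKM-1 and 1.97 to 31.2 in MOLM-14, OCI-AML3 and KG-1. In these 3 lines replicate 2 of either treatment had only 1.97 to 4.59 (6 libraries, called shallow here). Every tRNA gene was at 0 in MOLM-13 and SKM-1 (12 libraries) and nuclear copies of MT-RNR2 took far more signal in the other 3 lines. Differences between lines of the 2 sets therefore cannot be told apart from a difference in library or counting. Of 10 myeloid genes listed as markers, 7 (PTPRC, SPI1, CD33, CSF3R, CEBPA, LYZ and MPO) were at 10 or more in all 30 libraries. CD34 reached that level in 21 libraries, KIT in 19 and CEBPE in 15. Markers of other cell types were low except EPCAM in SKM-1 (up to 573.9), lymphoid genes in KG-1 (sum 217.6 to 362.7) and fibroblast genes in OCI-AML3 (sum 79.4 to 309.1).

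Mitochondrial mRNAs took 1.15% to 2.23% of all normalised counts of a library, and mitochondrial rRNAs 6.78% to 16.8%. In MOLM-13 the mRNAs took 2.16% to 2.23% of the counts in decitabine libraries and 1.4% to 1.63% in DMSO libraries. In SKM-1 they took 1.45% to 1.72% in decitabine libraries and 1.51% to 1.74% in DMSO libraries, which overlap. The rRNAs of MOLM-13 took 16.1% to 16.8% with decitabine and 11.1% to 12.5% with DMSO.

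On the mean of the 5 lines, MT-CO1, MT-CYB, MT-RNR2 and MT-RNR1 rose after decitabine. The other 11 mRNAs had positive changes that were not called. The threshold for a call was an adjusted p of 0.05 (limma on log2(normalised count + 1), Benjamini-Hochberg adjustment over 22168 genes). The background was 19.5% of all tested genes on this mean, 12% higher and 7.52% lower. Of the 15 mRNAs and rRNAs 4 were called, all higher, to be set against the 12%. Whether this share exceeds the background was not tested. The median change of the 13 mRNAs was 0.16 on the log2 scale, against 0.06 for all genes. MT-CO1 rose by 0.31 ± 0.04 (SE, limma adjusted p = 8.18e-06), MT-RNR2 by 0.32 ± 0.06 (limma adjusted p = 0.000216), MT-CYB by 0.30 ± 0.09 (limma adjusted p = 0.0282) and MT-RNR1 by 1.18 ± 0.32 (limma adjusted p = 0.0104). This mean combines opposite changes of some members in MOLM-13 and SKM-1, and each of these calls is lost in a fit of MOLM-14, OCI-AML3 and KG-1 alone, described further on. The call of MT-CYB is also lost without MOLM-13 (0.19, limma adjusted p = 0.333) or without MOLM-14 (limma adjusted p = 0.0633), and without single libraries of MOLM-13 (DMSO replicate 2), MOLM-14 (decitabine replicate 3), OCI-AML3 (DMSO replicate 1) or SKM-1 (decitabine replicate 1, DMSO replicate 3), where its limma adjusted p is 0.0506 to 0.0533. The call of MT-RNR1 is lost without OCI-AML3 (0.77, limma adjusted p = 0.0617). Quantile normalization, which gives the highest genes of each library the same values, ends the calls of MT-CO1 (0.10) and MT-RNR2 (0.00).

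**Figure D1:**
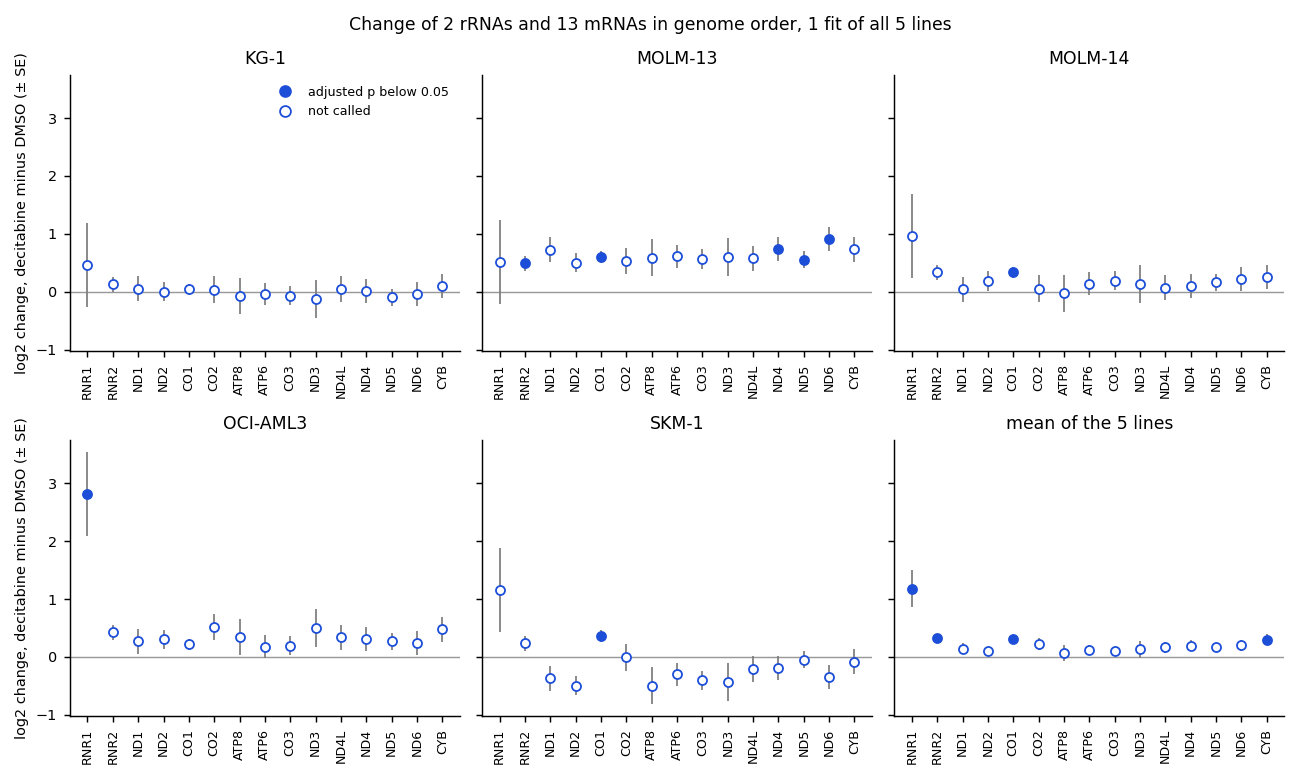
Log2 change (decitabine minus DMSO, ± SE) of 2 rRNAs and 13 mRNAs in genome order, in each line and as the mean of the 5 lines, from 1 fit. Filled points have an adjusted p below 0.05. All 13 mRNAs lie above 0 in MOLM-13, with MT-CO1 at 0.60, while 12 of 13 lie below 0 in SKM-1. In a separate fit of MOLM-13 and SKM-1 alone, not drawn here, other scaling changed the SKM-1 count. There 3 of 13 were above 0 when libraries were scaled without mitochondrial genes and 4 of 13 after quantile normalization.

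The 2 rRNAs differed in level and in how firmly they could be measured. MT-RNR2, the RNA of the large mitochondrial ribosomal subunit (chrM:1671-3229), was the highest member in every library. In MOLM-13 it had 3362560, 3671810 and 3629610 normalised counts with decitabine and 2682160, 2304670 and 2621500 with DMSO. In SKM-1 it had 3283920, 3038460 and 2687400 with decitabine and 2535470, 2721570 and 2380580 with DMSO. The groups did not overlap in MOLM-13, and overlapped in SKM-1. MT-RNR2 had 1789060, 1879940 and 1906830 normalised counts with decitabine in MOLM-14 and 1549420, 1547510 and 1323140 with DMSO. In KG-1 it had 2036200, 2223190 and 1973440 with decitabine and 1915150, 2127560 and 1667360 with DMSO. In OCI-AML3, MT-RNR2 had 2700340, 1628580 and 1777410 normalised counts with decitabine and 1303640, 1476450 and 1683460 with DMSO. The MOLM-14 groups did not overlap either, those of KG-1 and OCI-AML3 did, and decitabine replicate 1 stood highest in OCI-AML3. In the fit of all lines, MOLM-13 was the single line in which MT-RNR2 was called (0.49 ± 0.13 on the log2 scale, limma adjusted p = 0.0373). That call is lost without any one of the 6 MOLM-13 libraries (limma adjusted p = 0.0683 to 0.209), and is regained where only MOLM-13 and SKM-1 are fitted.

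MT-RNR1, the RNA of the small mitochondrial ribosomal subunit (chrM:648-1601), had the lowest value per kilobase of the 15 mRNAs and rRNAs in all 30 libraries. The labels' protocols state ribosomal RNA removal with RiboGone, whose targets are known to include the RNA of MT-RNR1, so that its values are what remained after removal. In OCI-AML3 it had 1062, 437.7 and 244.8 normalised counts with decitabine and 37.37, 27.64 and 300.8 with DMSO. The groups overlap, because DMSO replicate 3 is above decitabine replicate 3. In MOLM-14, MT-RNR1 had 152.4, 195.2 and 212.9 normalised counts with decitabine and 52.87, 130.7 and 121.8 with DMSO. In KG-1 it had 125.8, 219.2 and 212.8 with decitabine and 58.1, 172.6 and 223.6 with DMSO. MT-RNR1 had 34.64, 24.44 and 18.2 normalised counts in MOLM-13 with decitabine and 38.53, 13 and 9.779 with DMSO. In SKM-1 it had 14.63, 42.17 and 10.77 with decitabine and 8.936, 12.69 and 4.243 with DMSO. Only in MOLM-14 did the groups not overlap. The single-line call for MT-RNR1 was in OCI-AML3 (2.81 ± 0.73 on the log2 scale, limma adjusted p = 0.0207, against 5.37% of all genes called there). It is lost without decitabine replicate 1 (2.25, limma adjusted p = 0.101), without DMSO replicate 1 (2.39, limma adjusted p = 0.0958), without DMSO replicate 2 (2.17, limma adjusted p = 0.144) and within OCI-AML3 alone (limma adjusted p = 0.315).

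Both rRNAs are cut from a shared transcript, and a plain ratio of 2 genes within a library does not move with its scaling factor. The tested log2 ratio was taken after 1 was added to each normalised count, so it can move with scaling where MT-RNR1 is low. The ratio of MT-RNR2 to MT-RNR1 was 2544, 3721 and 7261 in the OCI-AML3 decitabine libraries and 34885, 53418 and 5596 in the DMSO libraries. Its log2 difference, decitabine minus DMSO, was -0.33 in KG-1 (p = 0.8, exact permutation test), -0.03 in MOLM-13 (exact p = 1), -0.62 in MOLM-14 (exact p = 0.2), -2.39 in OCI-AML3 (exact p = 0.2) and -0.92 in SKM-1 (exact p = 0.3). With 3 libraries against 3 no exact two-sided p can be below 0.1, and adjusted over the 10 tests of 2 ratios in 5 lines the lowest exact p was 0.6. The difference was negative in 5 of 5 lines, though that of MOLM-13 was near 0. In KG-1 and MOLM-13 its sign changed when single libraries were left out, and in MOLM-13 also with a pseudocount of 5. Over the 5 lines together the mean was -0.86 (two-sided exact permutation of treatments inside each line, p = 0.0187, adjusted over 2 such ratios p = 0.0375). Without the 6 shallow libraries it was -0.75 (exact permutation p = 0.0790). How much of this ratio was set by the removal of ribosomal RNA was not tested.

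**Figure D2:**
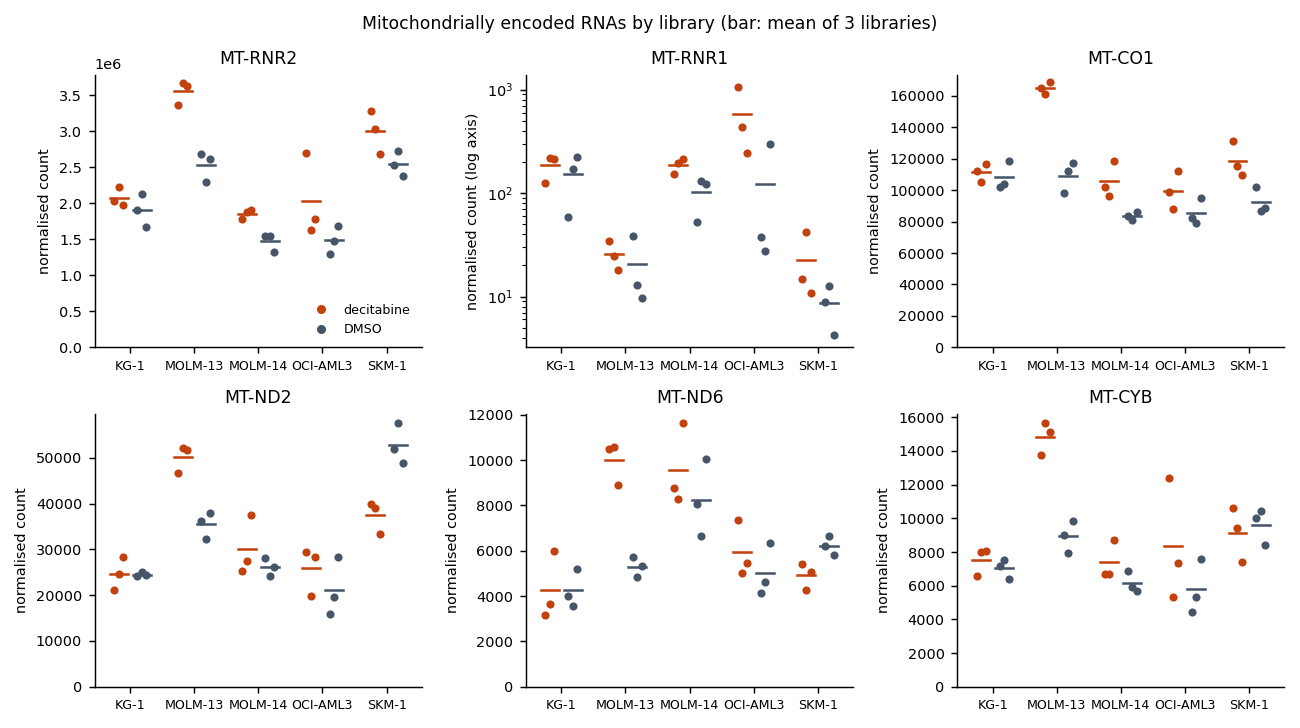
Normalised counts of 6 members in every library, by line, with decitabine left of DMSO; bars are means of 3 libraries, and the MT-RNR1 axis is a log axis. MT-CO1 stands at 161162 to 168867 in the MOLM-13 decitabine libraries, above the DMSO libraries of that line at 98192 to 117367, and MT-ND2 at 33286 to 39898 in SKM-1 decitabine libraries, below 48933 to 57491 with DMSO.

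MT-CO1 (chrM:5904-7445), the catalytic subunit of complex IV, was the mRNA with the highest level per kilobase in every line, and the one called most often. It had 164901, 161162 and 168867 normalised counts with decitabine in MOLM-13, against 98192, 112004 and 117367 with DMSO. In SKM-1, MT-CO1 had 131268, 115407 and 109581 with decitabine and 101690, 86562 and 88904 with DMSO. In MOLM-14 it had 101683, 96142 and 118505 with decitabine and 83662, 80764 and 85828 with DMSO. The decitabine libraries of MOLM-13, SKM-1 and MOLM-14 all stood above the DMSO libraries of the same line. In OCI-AML3, MT-CO1 had 98551, 88094 and 112250 normalised counts with decitabine and 82520, 78801 and 95068 with DMSO. In KG-1 it had 112159, 105106 and 116496 with decitabine and 102043, 103881 and 118617 with DMSO. In these 2 lines the groups overlap. MT-CO1 in the fit of all lines rose by 0.60 ± 0.10 in MOLM-13 (limma adjusted p = 0.000636), by 0.36 ± 0.10 in SKM-1 (limma adjusted p = 0.0152) and by 0.33 ± 0.10 in MOLM-14 (limma adjusted p = 0.0258). It was not called in OCI-AML3 (0.22) or KG-1 (0.04). The SKM-1 call is lost without decitabine replicate 1 (0.29, limma adjusted p = 0.119), DMSO replicate 2 (limma adjusted p = 0.0959) or DMSO replicate 3 (limma adjusted p = 0.0723), and the MOLM-14 call without decitabine replicate 3 (0.25, limma adjusted p = 0.124), DMSO replicate 1 (limma adjusted p = 0.0518) or DMSO replicate 2 (limma adjusted p = 0.0924) and in the fit of its own 3 lines (limma adjusted p = 0.0867). Under quantile normalization MT-CO1 changed by 0.00 in MOLM-13, 0.18 in SKM-1 and 0.23 in MOLM-14, none of them called. That method gives a change of 0 to any gene that keeps its rank in all libraries of a line. The 0.00 in MOLM-13 therefore does not measure how MT-CO1 changed there.

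In the fit of all lines, 5 of 15 mRNAs and rRNAs were called in MOLM-13, all higher, against 3.13% of all tested genes (1.45% higher, 1.67% lower). Besides MT-CO1 and MT-RNR2 these were MT-ND6, MT-ND5 and MT-ND4, subunits of complex I. Without any 1 of the 6 MOLM-13 libraries the count is 1 to 3, and without OCI-AML3 decitabine replicate 1 or DMSO replicate 3 it is 8. In SKM-1 1 mRNA was called (background 9.02%, 5.7% higher and 3.32% lower) and likewise in MOLM-14 (background 11%, 6.26% higher and 4.77% lower), MT-CO1 both times. OCI-AML3 had no mRNA called and MT-RNR1 alone among the rRNAs (background 5.37%, 3.74% higher and 1.64% lower). KG-1 had none of either (background 3.78%, 3.12% higher and 0.663% lower; 0 members with an unadjusted p below 0.05 among these 15). The median change of the 13 mRNAs was 0.60 in MOLM-13, -0.30 in SKM-1, 0.14 in MOLM-14, 0.30 in OCI-AML3 and 0.00 in KG-1. For all genes tested it was 0.08 in MOLM-13 and in SKM-1, 0.01 in MOLM-14 and in OCI-AML3, and 0.02 in KG-1. Quantile normalization moved the median of all genes in SKM-1 to -0.08, and that of the panel mean to -0.03. The fit of all lines shares 1 spread per gene, which the 6 shallow libraries also enter and, for the tRNAs, the 12 libraries of MOLM-13 and SKM-1 at 0. The lines were therefore also fitted as 2 sets, MOLM-13 with SKM-1 and MOLM-14 with OCI-AML3 and KG-1, a choice made for single lines after the data had been seen.

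With MOLM-13 and SKM-1 fitted alone, all 13 mRNAs and MT-RNR2 rose in MOLM-13, and 7 mRNAs fell in SKM-1 while MT-CO1 and MT-RNR2 rose. In MOLM-13, 14 of 15 were called higher, where 31.4% of 18205 genes were called (16.9% higher, 14.5% lower). In SKM-1, 9 of 15 were called where 38.8% of genes were called (22.4% higher, 16.3% lower). The change differed between both lines for 11 of 13 mRNAs, against 23% of all genes. The exceptions were MT-CO1 (limma adjusted p = 0.174) and MT-CO2 (limma adjusted p = 0.102), and neither rRNA was called (MT-RNR2, limma adjusted p = 0.140, and MT-RNR1, limma adjusted p = 0.626). Scaling without mitochondrial genes gave 14 calls in MOLM-13, 7 in SKM-1 and 11 for the difference, and quantile normalization gave 12, 2 and 11. Of the falls in SKM-1, those of MT-ND3 and MT-ATP6 are lost with that scaling. With quantile normalization only MT-ATP8 and MT-ND2 stay called in SKM-1, and the falls of MT-ND1, MT-ND3, MT-ND6, MT-CO3 and MT-ATP6 are lost. Leaving out 1 library at a time gave 12 to 14, 3 to 9 and 11. In SKM-1 the count is 3 without DMSO replicate 1 or 2 and 4 without decitabine replicate 2 or 3.

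**Figure D3:**
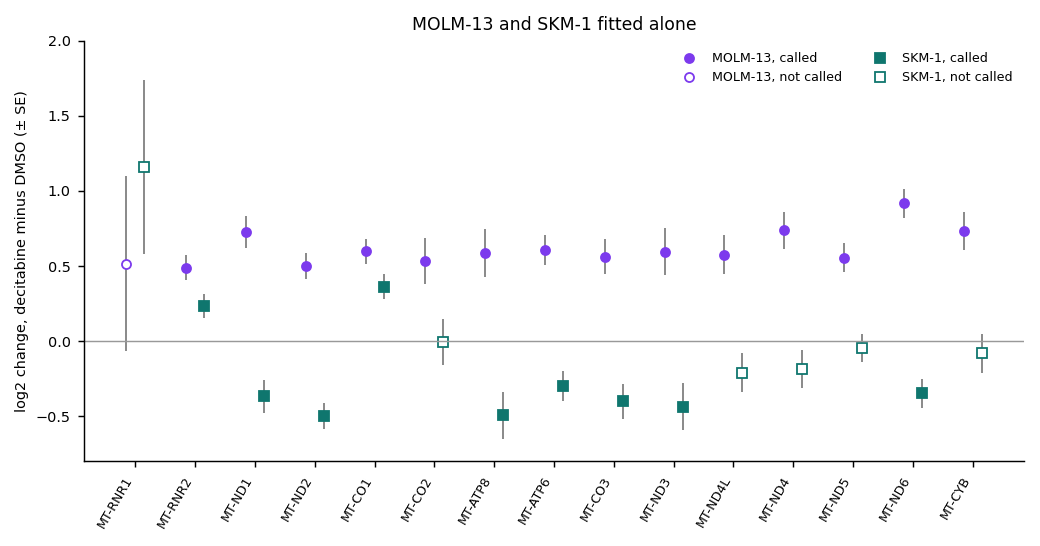
Log2 change (decitabine minus DMSO, ± SE) of each rRNA and mRNA in MOLM-13 (circles) and SKM-1 (squares), from a fit of these 2 lines alone, in genome order; filled symbols have an adjusted p below 0.05. MT-ND6 shows the widest gap (0.92 in MOLM-13, -0.35 in SKM-1), and MT-CO1 lies above 0 in both (0.60 and 0.36). In SKM-1, 12 of 13 mRNAs lie below 0, with 3 of 13 above 0 when libraries are scaled without mitochondrial genes and 4 of 13 after quantile normalization.

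Complex I has the most mitochondrially encoded subunits, 7 of the 13 mRNAs, which form its membrane arm. MT-ND2 (chrM:4470-5511) had 46636, 52154 and 51580 normalised counts with decitabine in MOLM-13 and 36200, 32257 and 37961 with DMSO. In SKM-1, MT-ND2 had 39898, 39088 and 33286 with decitabine and 51869, 57491 and 48933 with DMSO. All decitabine libraries were above DMSO in MOLM-13 and all were below it in SKM-1. Fitted on these 2 lines, MT-ND2 rose by 0.50 ± 0.09 in MOLM-13 (limma adjusted p = 0.00119) and fell by 0.50 ± 0.09 in SKM-1 (limma adjusted p = 0.000648). The change was 1.00 ± 0.12 higher in MOLM-13 than in SKM-1 (limma adjusted p = 0.000115). MT-ND1 (chrM:3307-4262) had 32263, 36788 and 35992 normalised counts with decitabine and 21648, 18319 and 23797 with DMSO in MOLM-13. In SKM-1, MT-ND1 had 18270, 16570 and 15016 with decitabine and 22056, 23388 and 18880 with DMSO. It too was separated in opposite directions, with a difference of 1.09 ± 0.15 between the 2 lines (limma adjusted p = 0.00039). MT-ND3 (chrM:10059-10404), the lowest mRNA per kilobase in all 30 libraries, had 2625, 3047 and 2932 normalised counts with decitabine in MOLM-13 and 2144, 1471 and 2146 with DMSO. In SKM-1, MT-ND3 had 1447, 1546 and 1198 with decitabine and 1738, 2232 and 1710 with DMSO, and its difference between the 2 lines was 1.03 (limma adjusted p = 0.00689).

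MT-ND4, MT-ND4L and MT-ND5 were called in MOLM-13 and not in SKM-1, and the difference itself was called for each. MT-ND4 had 21216, 24289 and 24199 normalised counts with decitabine in MOLM-13 and 14100, 12047 and 15834 with DMSO. In SKM-1, MT-ND4 had 21778, 20072 and 16325 with decitabine and 22442, 24050 and 19420 with DMSO, which overlap. MT-ND5 (chrM:12337-14148) had 42511, 47784 and 47793 normalised counts with decitabine in MOLM-13 and 31595, 28579 and 33903 with DMSO. In SKM-1, MT-ND5 had 37350, 34504 and 29656 with decitabine and 36477, 36830 and 31204 with DMSO, also overlapping. The change in MOLM-13 exceeded that in SKM-1 by 0.92 for MT-ND4 (limma adjusted p = 0.00322), by 0.79 for MT-ND4L (limma adjusted p = 0.00951) and by 0.60 for MT-ND5 (limma adjusted p = 0.00761). MT-ND4L and MT-ND4 share bases, as printed above, so that their calls are not separate evidence.

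MT-ND6 (chrM:14149-14673), the complex I subunit on the minus strand, had the widest difference between MOLM-13 and SKM-1. It had 10467, 10593 and 8910 normalised counts with decitabine in MOLM-13 and 5704, 4844 and 5313 with DMSO. In SKM-1, MT-ND6 had 5427, 4262 and 5059 with decitabine and 6201, 6668 and 5816 with DMSO. The groups were separated in both lines, in opposite directions. Fitted on these 2 lines, MT-ND6 rose by 0.92 ± 0.10 in MOLM-13 (limma adjusted p = 6.46e-05) and fell by 0.35 ± 0.10 in SKM-1 (limma adjusted p = 0.0148), and the changes differed by 1.26 ± 0.14 (limma adjusted p = 5.5e-05). The fall in SKM-1 was not called after quantile normalization. MT-ND6 overlapped between groups in MOLM-14, with 8753, 8300 and 11616 for decitabine and 8060, 6657 and 10036 for DMSO. Whether counting used strand is not given in the sources used here, so values of genes on the minus strand are uncertain.

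Complex III has 1 mitochondrially encoded subunit, the cytochrome b of MT-CYB (chrM:14747-15887). In MOLM-13, MT-CYB had 13741, 15644 and 15119 normalised counts with decitabine and 9003, 7964 and 9863 with DMSO. In SKM-1 it had 10615, 9406 and 7423 with decitabine and 9999, 10406 and 8435 with DMSO. The MOLM-13 groups were apart and the SKM-1 groups overlapped. MT-CYB rose in MOLM-13 in the fit of these 2 lines (0.73 ± 0.13, limma adjusted p = 0.00153) and was not called in SKM-1 (-0.08 ± 0.13, limma adjusted p = 0.652). The changes differed by 0.81 (limma adjusted p = 0.00754).

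MT-ND6 and MT-CYB lie next to each other on opposite strands, with MT-TE between them, and MT-CYB is the last mRNA of the plus strand. Their ratio per library, which no scaling factor moves before 1 is added to each normalised count, was compared between treatments. Its log2 difference was -0.13 in KG-1 (exact permutation p = 0.6), 0.18 in MOLM-13 (exact p = 0.3), -0.04 in MOLM-14 (exact p = 1), -0.23 in OCI-AML3 (exact p = 0.4) and -0.27 in SKM-1 (exact p = 0.3). Over all lines it was -0.10 (exact permutation p = 0.316, adjusted over 2 ratios p = 0.316). No difference between treatments was detectable, and the smallest p possible in 1 line is 0.1. As a level, MT-ND6 exceeded MT-CYB in all 6 MOLM-14 libraries (ratio 1.12 to 1.76) and was below it in every library of the other lines (0.453 to 0.947).

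In complex IV the 3 mitochondrial subunits did not move as 1 group in SKM-1. MT-CO3 (chrM:9207-9990) had 34238, 37343 and 32836 normalised counts with decitabine in MOLM-13 and 22243, 21500 and 27179 with DMSO. In SKM-1, MT-CO3 had 16616, 14523 and 12487 with decitabine and 19827, 20490 and 17064 with DMSO. MT-CO3 was separated upward in MOLM-13 and downward in SKM-1, whereas MT-CO1 was higher in both. The changes of MT-CO3, from the same fit, were 0.56 ± 0.12 in MOLM-13 (limma adjusted p = 0.00368) and -0.40 ± 0.12 in SKM-1 (limma adjusted p = 0.0166), and they differed by 0.96 (limma adjusted p = 0.00145). Its fall in SKM-1 was not called after quantile normalization. MT-CO2 (chrM:7586-8269) had 23150, 26500 and 24729 normalised counts with decitabine in MOLM-13 and 19365, 13546 and 19068 with DMSO. In SKM-1, MT-CO2 had 22440, 22730 and 17623 with decitabine and 21582, 23791 and 17754 with DMSO, and its change there was -0.01 ± 0.15 (limma adjusted p = 0.979). For MT-CO3, 14.8% at most of its summed signal with nuclear copies lay in the copies.

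The ratio of MT-CO1 to MT-ND2 within a library shows the unequal change without any scaling, and it was picked after the values had been seen, so it has no test. It was 3.29, 2.95 and 3.29 in SKM-1 decitabine libraries and 1.96, 1.51 and 1.82 in the DMSO libraries, which do not overlap. In MOLM-13 it was 3.54, 3.09 and 3.27 with decitabine and 2.71, 3.47 and 3.09 with DMSO, which overlap.

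The ATP synthase subunits MT-ATP6 and MT-ATP8 share 46 bases, so their values are not separate evidence. MT-ATP6 had 39698, 43013 and 43421 normalised counts with decitabine in MOLM-13 and 26742, 24886 and 31427 with DMSO. In SKM-1, MT-ATP6 had 22233, 20827 and 18292 with decitabine and 26700, 26537 and 22313 with DMSO. MT-ATP8 had 14728, 17448 and 18020 normalised counts with decitabine in MOLM-13 and 11583, 9190 and 12822 with DMSO, and in SKM-1 8842, 8049 and 6495 with decitabine and 11932, 11937 and 9055 with DMSO. Both were separated upward in MOLM-13 and downward in SKM-1. Their changes differed between these 2 lines by 0.91 for MT-ATP6 (limma adjusted p = 0.000718) and by 1.08 for MT-ATP8 (limma adjusted p = 0.00536).

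In the fit of all 5 lines the test of unequal changes called 2 of 15 members, MT-ND6 (limma adjusted p = 0.0434) and MT-ND2 (limma adjusted p = 0.0445), against 9.46% of all genes. Both calls are lost without MOLM-13 and without SKM-1, after which 0 of 15 are called (limma). Leaving out any single library of MOLM-13 or SKM-1, KG-1 DMSO replicate 1 or OCI-AML3 DMSO replicate 2 also leaves 0, and without KG-1 decitabine replicate 2, KG-1 DMSO replicate 2, MOLM-14 decitabine replicate 1, MOLM-14 DMSO replicate 1 or MOLM-14 DMSO replicate 2 there is 1. Without OCI-AML3, 9 of 15 are called, in a fit whose own share of all genes called is not given here.

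In MOLM-14, OCI-AML3 and KG-1 fitted alone, none of the 15 mRNAs and rRNAs was called in a single line, on their mean, or for a difference between the 3 lines. With limma at an unadjusted p below 0.05 there were 0 in KG-1, 2 in MOLM-14 (MT-CO1 and MT-RNR2), 3 in OCI-AML3 and 3 on their mean (MT-CO1, MT-RNR2 and MT-RNR1 both times), and 0 for the difference. The background there was 1.27% in KG-1, 3.81% in MOLM-14, 1.54% in OCI-AML3, 5.4% on the mean and 1.08% for the difference. Nearest to the threshold on the mean were MT-RNR2 (0.30, limma adjusted p = 0.0540), MT-CO1 (0.20, limma adjusted p = 0.0638) and MT-RNR1 (1.41, limma adjusted p = 0.0711). All 13 mRNAs had a positive value in OCI-AML3, where 1 library stood out. MT-CO2 had 26112, 10988 and 13849 normalised counts with decitabine in OCI-AML3 and 8443, 11090 and 14468 with DMSO. MT-CYB had 12368, 5312 and 7376 with decitabine in OCI-AML3 and 4455, 5314 and 7597 with DMSO. For both genes decitabine replicate 1 was the highest and DMSO replicate 1 the lowest of the 6 libraries, and the other 4 overlap.

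In MOLM-14 and KG-1 most members overlapped between treatments. MT-ND2 had 25257, 27510 and 37449 normalised counts with decitabine in MOLM-14 and 28030, 24123 and 26167 with DMSO. In KG-1, MT-ND2 had 21071, 24559 and 28307 with decitabine and 24072, 24955 and 24288 with DMSO. Decitabine replicate 3 was highest in both lines. The 13 mRNAs ranged from -0.12 to 0.10 on the log2 scale in KG-1, and from -0.03 to 0.33 in MOLM-14.

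The 22 tRNA genes were at 0 in all 12 libraries of MOLM-13 and SKM-1 and, summed, had signal in all 18 libraries of MOLM-14, OCI-AML3 and KG-1. Short genes outside the mitochondrion were also at 0 in MOLM-13 and SKM-1. Of the non-mitochondrial genes of up to 80 bases with signal in at least 6 of the 18 libraries of the other lines, 101 of 101 were at 0 in all 12. The share was 39.3% for genes of 81 to 100 bases (44 of 112), 9.47% for 101 to 200 bases (36 of 380) and 1.87% for longer genes (509 of 27279). Values of 0 for tRNAs in MOLM-13 and SKM-1 thus go with gene length over the whole table, and no level of a tRNA can be read there. In the other lines the tRNAs summed to 81 to 1672 reads per library, and 1 read was worth 0.595 to 10.3 normalised counts.

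Summed over the 22 tRNA genes, and given from the lowest to the highest library, KG-1 had 469.1, 477 and 710.7 normalised counts with decitabine and 502.9, 570.9 and 590.7 with DMSO. MOLM-14 had 914.3, 1157 and 1704 with decitabine and 1096, 1283 and 1416 with DMSO. OCI-AML3 had 704.8, 1159 and 1264 with decitabine and 559.7, 649.1 and 1064 with DMSO. The groups overlap in all 3 lines. MT-TL1, the leucine tRNA to the right of MT-RNR2, held 43.8% to 68.5% of the sum in each library. It had 635.1, 400.6 and 1080 normalised counts with decitabine in MOLM-14 and 878.6, 693.8 and 798.7 with DMSO. In OCI-AML3, MT-TL1 had 656.3, 422.9 and 793.2 with decitabine and 424.9, 352.4 and 687.6 with DMSO. In KG-1 it had 263.8, 227.8 and 402.6 with decitabine and 270.5, 298.7 and 320.5 with DMSO. These groups overlap too. MT-TV, on the left of MT-RNR2, reached 140.1, MT-TE 123.3 and every other tRNA less than 100. Whether reads of uncut transcript were counted for these tRNAs was not tested.

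**Figure D4:**
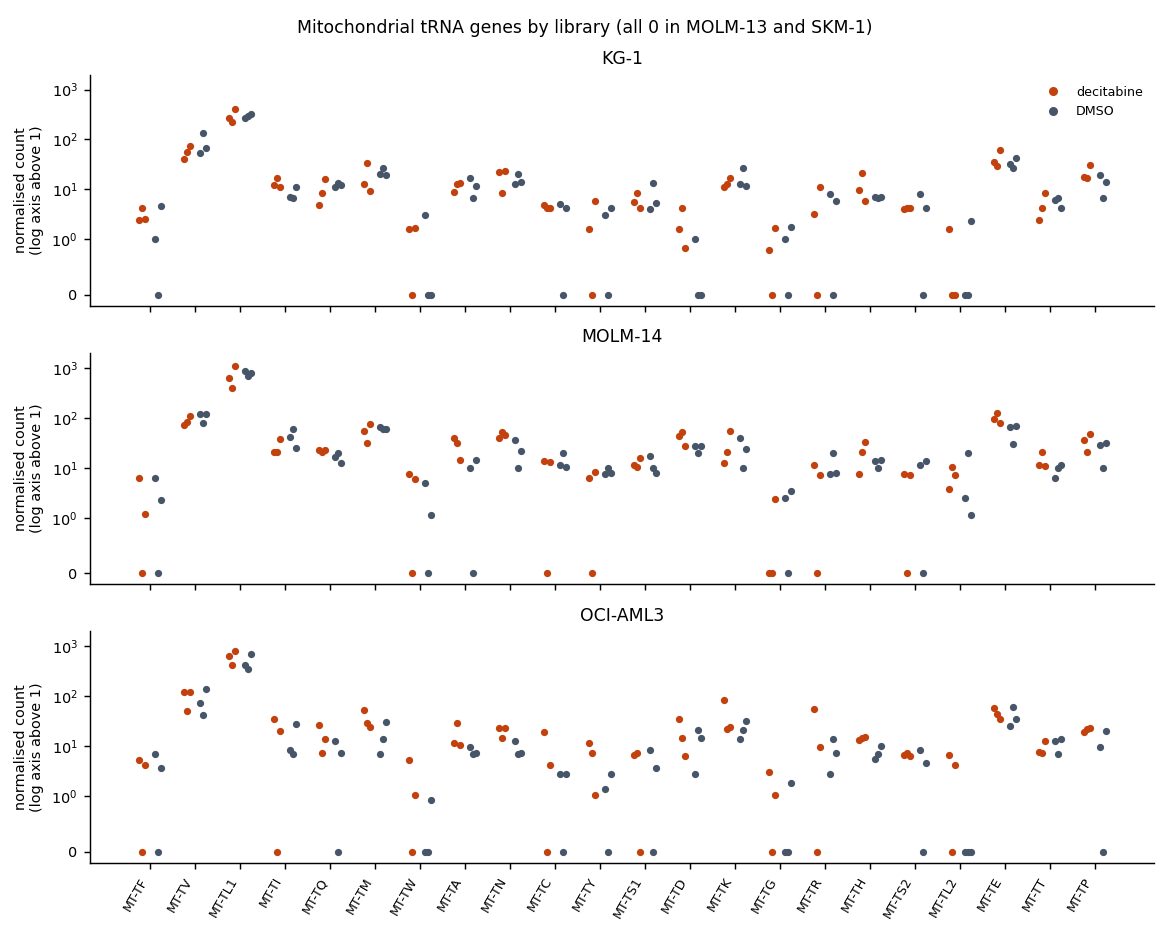
Normalised counts of the 22 tRNA genes in genome order in each library of MOLM-14, OCI-AML3 and KG-1, with decitabine left of DMSO; the axis is linear up to 1 and logarithmic above. MT-TL1 is the highest in every library, and both treatments overlap for most tRNAs. All values of MOLM-13 and SKM-1 are 0 and are not drawn.

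No tRNA was called in KG-1, MOLM-14, OCI-AML3 or on their mean when these lines were fitted alone (16 tested with limma; 0, 2, 2 and 3 of them had an unadjusted p below 0.05). The median change was 0.01 in KG-1, 0.31 in MOLM-14, 0.66 in OCI-AML3 and 0.20 on their mean, where 13 of 16 tRNAs were positive. In the fit of all lines the alanine tRNA MT-TA was called in MOLM-14 (2.28 ± 0.66, limma adjusted p = 0.0262). The spread behind that SE includes the 12 libraries of MOLM-13 and SKM-1, all at 0, and within MOLM-14 alone the SE is 1.17 (limma adjusted p = 0.398). MT-TA had 39.38, 30.82 and 14.35 normalised counts with decitabine in MOLM-14 and 10.07, 0 and 14.67 with DMSO. The library at 0 was one of the shallow ones, where 1 read is worth up to 10.3, and the groups overlap. The call of MT-TA is lost without DMSO replicate 2 (1.04, limma adjusted p = 0.207), without decitabine replicate 1 (1.99, limma adjusted p = 0.0889) or 2 (2.16, limma adjusted p = 0.0805), without the 6 shallow libraries (0.92, limma adjusted p = 0.123), in the fit of the 3 lines alone (limma adjusted p = 0.163) and within MOLM-14 alone. The asparagine tRNA MT-TN had 39.38, 51.36 and 45.44 normalised counts with decitabine in MOLM-14 and 35.24, 10.06 and 21.43 with DMSO. In OCI-AML3, MT-TN had 22.68, 14.84 and 23.52 with decitabine and 12.46, 6.91 and 7.474 with DMSO. In KG-1, MT-TN had 22.72, 8.59 and 22.98 with decitabine and 13.02, 19.91 and 14.27 with DMSO. Its groups do not overlap in MOLM-14 or OCI-AML3 but overlap in KG-1 (change 0.10), and its mean change over the 3 lines was 0.79 ± 0.30 (limma adjusted p = 0.166). In the fit of the 3 lines the call appears without the 6 shallow libraries (0.83, limma adjusted p = 0.0468).

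Parts of mitochondrial DNA are also present as copies in nuclear chromosomes, and reads can match both. The MTRNR2L genes, nuclear copies of MT-RNR2, took 5.42% to 22.6% of the summed signal of MT-RNR2 and these copies in MOLM-14, OCI-AML3 and KG-1. In MOLM-13 and SKM-1 they took 0.0991% to 0.377%. MTRNR2L12 alone stood at 85397 to 437659 normalised counts in the 18 libraries of the 3 lines and at 2138 to 13572 in the 12 libraries of MOLM-13 and SKM-1. The sets do not overlap, and they are the same sets that differ in depth and in the tRNAs. Copies took 7.88% to 18.2% of the summed signal for MT-ATP6, up to 14.8% for MT-CO3, up to 6.99% for MT-ND1 and 1.83% to 4.99% for MT-ND2. The 5 copies with the highest values were MTRNR2L12, MTRNR2L1, MTATP6P1, MTCO3P12 and MTND2P28. When each member was summed with its copies, 5 of 15 were called in MOLM-13, 4 on the mean of the 5 lines and 3 for unequal changes between lines. The summing changed only the values of members. Before it, 3.13% of all genes were called in MOLM-13, 19.5% on the mean (12% higher) and 9.46% for unequal changes. Whether the counts of members exceed these shares was not tested.

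**Figure D5:**
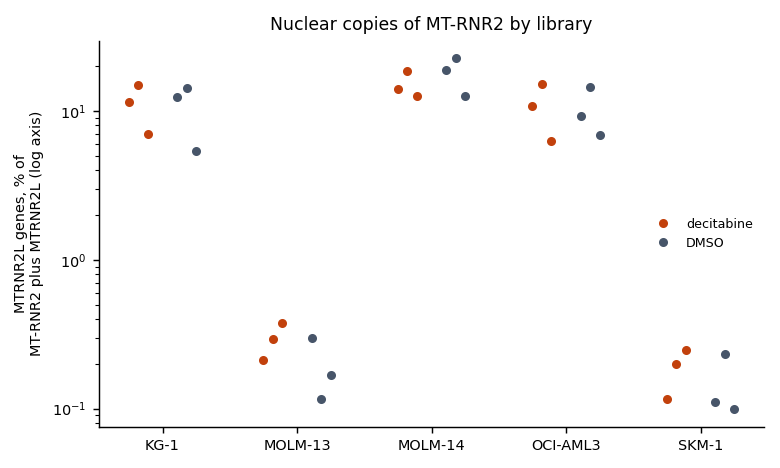
Share of the summed signal of MT-RNR2 and its nuclear MTRNR2L copies that lay in the copies, per library (log axis), with decitabine left of DMSO in each line. The libraries of MOLM-14, OCI-AML3 and KG-1 lie at 5.42% to 22.6%, those of MOLM-13 and SKM-1 at 0.0991% to 0.377%, and treatments overlap within lines.

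With DMSO alone the order of levels per kilobase was similar over lines. In DMSO, MT-RNR2 had a mean of 945064 to 1633020 normalised counts per kilobase. Of the mRNAs, MT-CO1 was highest (70156 in KG-1, 70809 in MOLM-13, 54097 in MOLM-14, 55423 in OCI-AML3 and 59913 in SKM-1). MT-ND3 was lowest, at 3234 per kilobase in KG-1, 5551 in MOLM-13, 2570 in MOLM-14, 1424 in OCI-AML3 and 5472 in SKM-1. The next lowest mRNA was MT-CYB, at 5073 to 8425 per kilobase. Over all lines 14 of 15 members differed in DMSO level between lines, all but MT-ATP6 (limma adjusted p = 0.135), against 77.9% of all genes. Within the sets the count was 6 between MOLM-13 and SKM-1 (background 71.7%) and 4 among MOLM-14, OCI-AML3 and KG-1 (background 50.5%). The 6 were MT-CO1, MT-CO3, MT-ND2, MT-ND4, MT-ND4L and MT-ND6, and the 4 were MT-CO1, MT-ND1, MT-ND3 and MT-ND6.

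Of the nuclear genes that make, process and translate mitochondrial RNA, those called on the mean of the 5 lines fell after decitabine, apart from 4 genes of replication and nucleotide supply that rose. Of 9 tested genes for transcription of mitochondrial DNA, 0 rose and 4 fell (median -0.22, against 0.06 for all genes). The polymerase POLRMT fell by 0.53 ± 0.13 (limma adjusted p = 0.0038), TFAM, which packs and activates mitochondrial DNA, by 0.22 ± 0.07 (limma adjusted p = 0.0272), the initiation factor TFB2M by 0.28 ± 0.05 (limma adjusted p = 0.000148) and MTERF3 by 0.32 (limma adjusted p = 0.000244). The mean of TFAM was 2197 with decitabine and 2253 with DMSO in KG-1, and 1890 and 1939 in OCI-AML3, with wider falls in the other lines. Of 16 genes for replication and nucleotide supply, 4 rose and 3 fell (median -0.09). The helicase TWNK fell by 0.42 ± 0.06 (limma adjusted p = 6.74e-06), while the mitochondrial thymidine kinase TK2 rose by 0.38 ± 0.06 (limma adjusted p = 5.41e-05) and the ribonucleotide reductase subunit RRM2B by 0.33 ± 0.07 (limma adjusted p = 0.0006). The mean of TK2 was 1696 with decitabine and 1710 with DMSO in MOLM-13, and higher with decitabine in each other line. In single lines, 2 of the 9 transcription genes fell in MOLM-14 and 2 in SKM-1, and 0 were called in the others. Of the 16 replication genes, 1 fell in MOLM-14 and 3 in SKM-1. Those that rose were 2 in KG-1, 2 in MOLM-14, 1 in OCI-AML3 and 1 in SKM-1. Shares of all genes called per line are given above.

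Of 17 genes for processing and decay of mitochondrial RNA, 0 rose and 8 fell (median -0.18). The decay helicase SUPV3L1 fell by 0.45 ± 0.05 (limma adjusted p = 2.58e-07) and the mRNA-stabilising LRPPRC by 0.27 ± 0.03 (limma adjusted p = 6.98e-07). SLIRP, its partner, was at -0.22 ± 0.10 and was not called (limma adjusted p = 0.128). LRPPRC was at -0.34 in MOLM-13 (limma adjusted p = 0.00705) and at -0.52 in SKM-1 (limma adjusted p = 9.92e-06). Whether its RNA level bears on the mitochondrial mRNAs was not tested. Of 19 RNA modification genes 0 rose and 3 fell (median -0.13), with PUS1, a pseudouridine synthase, at -0.38. Of 10 genes for assembly of the mitochondrial ribosome 0 rose and 5 fell (median -0.19), with the helicase DDX28 at -0.55 ± 0.07 (limma adjusted p = 1.48e-06). Of 80 tested mitochondrial ribosomal proteins 0 rose and 36 fell (median -0.16), among them MRPL58 at -0.43 ± 0.07 (limma adjusted p = 5.18e-05). Of the 6 coactivators 0 were called in either direction (median -0.06). The background is 12% of all genes called higher and 7.52% called lower. In single lines, 16 of the 80 ribosomal proteins fell in SKM-1 (background 3.32% lower), 5 in MOLM-13 (background 1.67% lower), 4 in MOLM-14 (background 4.77% lower) and 0 in OCI-AML3 and KG-1. In OCI-AML3 1 rose (background 3.74% higher), and in KG-1 0 were called in either direction.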

How the data were processed

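RNA was measured in 30 libraries of 5 lines and 2 treatments. The authors deposited 1 table of signal values, here called normalised counts: per the table's name, estimated counts after division by normalization factors from DESeq2. Per the submitters' processing notes, Salmon 1.2.1, STAR, featureCounts, DESeq2 and limma were used with hg38, with no role or order given; the annotation release and the strand setting are not given in the sources used here. Libraries were read as single-end 50 bp reads from a SMARTer stranded kit after RiboGone, per the labels' protocols. Low values were whole multiples of a step per library in 55.1% to 65.6% of cases (tolerance 0.02), too few to recover reads, so count models were not used; depth is the total divided by the step. Columns of 12 libraries of HL-60 match no labelled sample and were not used, and 12 labelled libraries (OCI-AML2, THP-1) were not analysed here. The design text does not name MOLM-14, and the treatment letters in the column names of MOLM-14, OCI-AML3 and KG-1 were read as for SKM-1 and MOLM-13, whose labels name their columns. Coordinates and transcripts are from GENCODE 29 (GRCh38), matched by identifier for 58064 genes.

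Values were analysed as log2(normalised count + 1), and a change on this scale understates that of low genes. Genes with at least 10 in at least 3 libraries entered limma 3.58.1 under R 4.3.3 (with statmod 1.5.0), using 10 group means, 20 residual degrees of freedom and trended, robust moderation. P-values were Benjamini-Hochberg adjusted over all tested genes within a comparison and called below 0.05. Comparisons were decitabine minus DMSO per line, the mean of the 5 lines, an F-test of equal changes and an F-test of equal DMSO levels. Fits of MOLM-13 with SKM-1, and of MOLM-14 with OCI-AML3 and KG-1, filtered genes on their own libraries; for single lines they were chosen after the data had been seen. Ratios of 2 members, as differences of log2(normalised count + 1), were tested by exact two-sided permutation within lines. The fitting script was tested on simulated data. Members and gene lists were chosen with earlier results of these data known. All members could be named; of each nuclear list at most 4 called genes with the largest change on the mean were named, and POLRMT, TFAM, TFB2M, LRPPRC and SLIRP whatever their values, and of the nuclear copies the 5 with the highest value. Alternatives were other pseudocounts, no filter, quantile normalization, scaling without mitochondrial genes, library weights, no robust moderation, a replicate block, members summed with copies, and fits without the shallow libraries, without a library or a line, or within 1 line.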

Additional observations from a re-analysis of the deposited data

Results flagged for a closer look

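The change after decitabine differed between lines for 13 results. In the fit of all 5 lines the test of equal changes (limma, adjusted over all genes) gave an adjusted p of 0.0434 for MT-ND6 and of 0.0445 for MT-ND2. With MOLM-13 and SKM-1 fitted alone, the changes of the complex I mRNAs differed, with limma adjusted p = 5.5e-05 for MT-ND6, 0.000115 for MT-ND2, 0.00039 for MT-ND1, 0.00322 for MT-ND4, 0.00689 for MT-ND3, 0.00761 for MT-ND5 and 0.00951 for MT-ND4L. The same test gave a limma adjusted p of 0.000718 for MT-ATP6, 0.00145 for MT-CO3, 0.00536 for MT-ATP8 and 0.00754 for MT-CYB. All 11 changes were higher in MOLM-13 than in SKM-1. MT-ND2 and MT-ND6 were called in both fits, and each is counted once per fit among the 13. The fit of all lines also holds the libraries of MOLM-13 and SKM-1, so its calls are not separate evidence. They were lost in 22 of 47 other settings for MT-ND6 and in 27 of 47 for MT-ND2. Of all genes, 9.46% were called in the fit of all lines and 23% in that of MOLM-13 and SKM-1. Single outlying libraries were not tested for in groups of 3.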

How the results depend on the processing

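For MOLM-13, where 5 mRNAs and rRNAs were called in the fit of all lines, there were 3 without a filter, 2 with quantile normalization, 14 with library weights, 3 without robust moderation, 8 without the 6 shallow libraries, 14 with MOLM-13 and SKM-1 alone and 14 within MOLM-13. In SKM-1 (1) the count was 0 with quantile normalization, 7 with library weights, 2 without the shallow libraries, 9 with MOLM-13 and SKM-1 alone and 8 within SKM-1. In that fit of 2 lines the 9 became 2 with quantile normalization. In MOLM-14 (1) it was 0 with quantile normalization, library weights, its 3 lines alone or within the line, and 2 with scaling without mitochondrial genes. For OCI-AML3 (1) it was 2 with a pseudocount of 5 and 0 with library weights, the 3 lines alone or within the line. On the mean of the 5 lines (4) it was 0 with MOLM-14, OCI-AML3 and KG-1 alone, and that 0 was 1 with scaling without mitochondrial genes. For unequal changes (2) it was 1 without a filter or robust moderation, 0 with quantile normalization, without MOLM-13, without SKM-1 and in the 3 lines alone, 11 with library weights and with MOLM-13 and SKM-1 alone, and 9 without OCI-AML3. DMSO levels (14) gave 6 and 4 in the 2 sets of lines. Of tRNAs, MOLM-14 (1) had 2 with a pseudocount of 5 and 0 with library weights, without the shallow libraries, in its 3 lines alone or within the line. OCI-AML3 (0) had 3 tRNAs without the shallow libraries, and the mean (0) had 1 with a pseudocount of 5, with library weights, without the shallow libraries and without KG-1. These tRNA counts come from fits whose spread includes the 12 libraries of MOLM-13 and SKM-1 at 0, and the mean averages in their changes of 0, so they do not show that tRNAs rose or fell. Under quantile normalization MT-RNR2 gets the same top value in every library, so its change is 0 by construction. A gene that keeps its rank in all libraries of a line also gets 0, as MT-CO1 did in MOLM-13. The cause of the other moves was not tested. No result reversed its direction while called. The share of all genes called moves with the fit as well. In MOLM-13 it was 3.13% in the fit of all lines and 31.4% in the fit of MOLM-13 and SKM-1 alone. In SKM-1 it was 9.02% and 38.8%, and for unequal changes 9.46% and 23%. Shares under the other settings are not given here. A changed count of members is therefore not by itself a result about them.

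Leaving out 1 library at a time gave 0 to 0 mRNAs and rRNAs in KG-1, 1 to 8 in MOLM-13, 0 to 2 in MOLM-14, 0 to 3 in OCI-AML3, 0 to 2 in SKM-1, 3 to 7 on the mean, 0 to 3 for unequal changes and 11 to 15 for DMSO levels. It gave 0 to 2 tRNAs in MOLM-14 and in OCI-AML3 and 0 to 1 on the mean. With MOLM-13 and SKM-1 alone it gave 12 to 14, 3 to 9 and, for unequal changes, 11 to 11. The log2 difference of the MT-RNR2 to MT-RNR1 ratio ranged from -0.80 to 0.26 in KG-1, -0.55 to 0.38 in MOLM-13, -0.88 to -0.17 in MOLM-14, -3.36 to -1.75 in OCI-AML3, -1.23 to -0.38 in SKM-1 and -1.05 to -0.73 over all lines. That of MT-ND6 to MT-CYB ranged from -0.35 to 0.087, 0.09 to 0.28, -0.16 to 0.17, -0.40 to -0.06, -0.43 to -0.14 and -0.14 to -0.05 in the same order. With a pseudocount of 5 the first ratio was 0.081 in MOLM-13, and over all lines it was -0.75 without the shallow libraries (exact permutation p = 0.0790).

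Same-numbered decitabine and DMSO libraries deviated together with a correlation of 0.07 to 0.15 in MOLM-14, OCI-AML3 and KG-1. Different-numbered ones gave -0.12 to 0.05 in these lines, where replicate 2 was also the shallow library of either treatment. In MOLM-13 and SKM-1 same-numbered libraries gave -0.02 to 0.04. The main fits did not pair libraries by replicate number, and statements that groups overlap leave any such pairing out. With a replicate block the counts were 0 in KG-1, 6 in MOLM-13, 1 in MOLM-14, 1 in OCI-AML3, 2 in SKM-1, 4 on the mean and 4 for unequal changes. The share of all genes called with that block is not given here, so these counts are not by themselves results about the members. In the 18 libraries of MOLM-14, OCI-AML3 and KG-1 the tRNAs summed to only 81 to 1672 reads per library.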
